A study of Mus musculus with 10 samples.

Results

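Glutathione S-transferase (GST) genes were examined in the kidneys of mice that had received rilmenidine, an oral drug against high blood pressure. The 10 members were Gstm1, Gstm4, Gstm5 and Gstm6 of the mu class, Gsta2, Gsta3 and Gsta4 of the alpha class, Gstp1 of the pi class, Gstt1 of the theta class and Gstk1 of the kappa class. They are 10 of the 43629 genes listed in the count table and were taken by symbol. Gstm1 was selected on its p-value in the comparison of rilmenidine with control, which was among the smallest, and the rest of the family was taken with it, so the difference between the groups is given as a description. All kidneys came from 4-month-old male mice of the UM-HET3 stock, an outcross in which each animal carries its own mixture of the founder strains' alleles. The 6 control mice were fed the Purina 5LG6 diet, and the 4 treated mice were fed the same diet with rilmenidine at 10 ppm for 1 month, starting at 3 months of age. Both groups thus share strain, sex, age and base diet, and a single dose and a single time were measured. Polyadenylated RNA was sequenced and reads were counted per gene.

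GSTs are enzymes that join the tripeptide glutathione to reactive electrophiles, such as drug metabolites and the aldehydes made when lipids are oxidised. The conjugates are trimmed by enzymes on the brush border of the kidney's proximal tubule and leave in the urine as mercapturic acids. Several GST genes are known targets of the transcription factor NRF2, which with a small MAF protein binds antioxidant response elements in their promoters and enhancers.

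The mu-class genes lie side by side on mouse chromosome 3. In the GRCm38 build (mm10), Gstm1 (ENSMUSG00000058135) spans chr3:108012255-108017973 on the minus strand, and Gstm5 (ENSMUSG00000004032) spans chr3:107895821-107898686 on the plus strand. Gsta3 (ENSMUSG00000025934) is at chr1:21240589-21265661 on the plus strand, and Gstk1 (ENSMUSG00000029864) is at chr6:42245935-42250447 on the plus strand. The other members are Gstm4 at chr3:108040408-108044894, Gstm6 at chr3:107938847-107943749, Gsta2 at chr9:78331018-78355788, Gstp1 at chr19:4035407-4037985 and Gstt1 at chr10:75783813-75798584, all on the minus strand, and Gsta4 at chr9:78182774-78209349 on the plus strand. The 250 bases before the transcription start of these 4 genes are printed because they were the members with an unadjusted p under 0.05 in the comparison of the groups. The sequences are from RefSeq (GRCm38.p6), which held a promoter for 9 of the 10 members, and run 5′ to 3′ along the gene's own strand. Capitals mark the letters of an antioxidant response element core, TGACNNNGC or TGAGNNNGC, or of an AP-1 site, TGACTCA, on either strand.
Gstm1, chr3:108017974-108018223, minus strand: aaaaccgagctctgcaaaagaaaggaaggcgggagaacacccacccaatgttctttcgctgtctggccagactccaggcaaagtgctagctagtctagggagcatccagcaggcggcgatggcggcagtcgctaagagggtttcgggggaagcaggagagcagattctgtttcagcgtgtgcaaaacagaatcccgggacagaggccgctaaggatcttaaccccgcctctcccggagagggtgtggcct
Gstm5, chr3:107895604-107895853, plus strand: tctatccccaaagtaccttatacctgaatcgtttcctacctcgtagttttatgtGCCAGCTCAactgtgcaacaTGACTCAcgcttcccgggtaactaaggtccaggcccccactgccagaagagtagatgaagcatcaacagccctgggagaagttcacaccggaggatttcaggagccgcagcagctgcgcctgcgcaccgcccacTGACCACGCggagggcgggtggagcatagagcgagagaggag
Gsta3, chr1:21240335-21240584, plus strand: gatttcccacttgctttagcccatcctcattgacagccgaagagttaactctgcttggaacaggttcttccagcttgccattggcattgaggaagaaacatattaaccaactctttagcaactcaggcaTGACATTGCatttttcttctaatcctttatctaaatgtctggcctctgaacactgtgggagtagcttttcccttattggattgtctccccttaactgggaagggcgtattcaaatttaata
Gstk1, chr6:42245685-42245934, plus strand: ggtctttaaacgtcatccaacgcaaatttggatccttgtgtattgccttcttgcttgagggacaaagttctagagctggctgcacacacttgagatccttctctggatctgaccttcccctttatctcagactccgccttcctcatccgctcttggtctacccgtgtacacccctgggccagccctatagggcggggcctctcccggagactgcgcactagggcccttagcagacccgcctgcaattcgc
The core TGACNNNGC stood 34 to 42 bases before the start of Gstm5 and 113 to 121 bases before that of Gsta3. The Gstm5 window also held TGAGNNNGC on the minus strand, 188 to 196 bases before the start, and TGACTCA 170 to 176 bases before it, and none of these overlapped another. The Gstm1 and Gstk1 windows held none of these letters. Over the 9 members with a promoter, 4 (Gstm5, Gsta3, Gstp1 and Gstt1) held a core of either form, and 23.0% of all 32851 mouse promoters did. TGACNNNGC alone was in 2 members and in 10.2% of all promoters, TGAGNNNGC in 3 members and in 14.4%, and TGACTCA in 2 members and in 4.46%. In Gstp1 the TGACTCA match overlapped a TGAGNNNGC match on the other strand. GTTAAT, the letters of an HNF1 site, was in Gsta3 alone and in 6.43% of all promoters, and TATAAA was in Gsta2 alone and in 12.4%. A match is a description of the letters in this window and does not show that a factor binds there.

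The libraries held 863605 to 2559118 counts in control and 1813465 to 3232063 in rilmenidine kidneys, so that 3 counts correspond to 0.928 to 3.47 CPM (counts scaled to a common library total). Summed markers of the proximal tubule stood at 41565 to 68219 normalized CPM and summed hepatocyte markers at 23.8 to 68.9, which bears on the tissue label because the extraction text of the labels speaks of liver. Several features of whole libraries moved with the groups or split them. Reads on olfactory and vomeronasal receptor genes, which kidney is not known to express in number, made up 51.7 to 436 CPM in 7 libraries and 4.27 to 8.99 CPM in control 6, rilmenidine 3 and rilmenidine 4, which were also the 3 deepest. The nuclear RNA Malat1 was at 1199.6 to 2209 CPM in 4 control libraries and at 284 to 390 CPM in controls 2 and 6 and the 4 rilmenidine libraries. Rilmenidine 3 and rilmenidine 4 also stood apart in Aqp4, at 189 and 97.7 normalized CPM against 11.0 to 32.04 in the other 8 kidneys. Over the whole table of 10055 genes tested, 0 genes had an adjusted p under 0.05 (edgeR quasi-likelihood test, Benjamini-Hochberg), and 1061 genes had an unadjusted p under 0.05. DESeq2 called 60 genes and edgeR's likelihood ratio test 44.

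In the control kidneys the GST genes covered a wide range of levels, led by Gstm1. Per kilobase of exon, Gstm1 had a mean of 511 normalized CPM, with 465 in the lowest control and 581 in the highest. Gstm5 followed at 117 and Gstt1 at 108 normalized CPM per kilobase, and their ranges over the 6 controls overlapped. Gstk1 came next at 53.5, with a range that met neither neighbour's. Gsta4 at 23.9, Gsta2 at 21.2, Gsta3 at 12.9 and Gstm4 at 7.72 normalized CPM per kilobase formed a run in which each gene's range overlapped that of the next. Gstm6 at 1.33 and Gstp1, with no read, were the lowest. The protocol cited in the labels captures the 3′ end of transcripts, for which a division by length is not needed, and by plain normalized CPM 5 of the 10 members kept their rank, while Gsta3 moved up from rank 7 to rank 5.

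**Figure D1:**
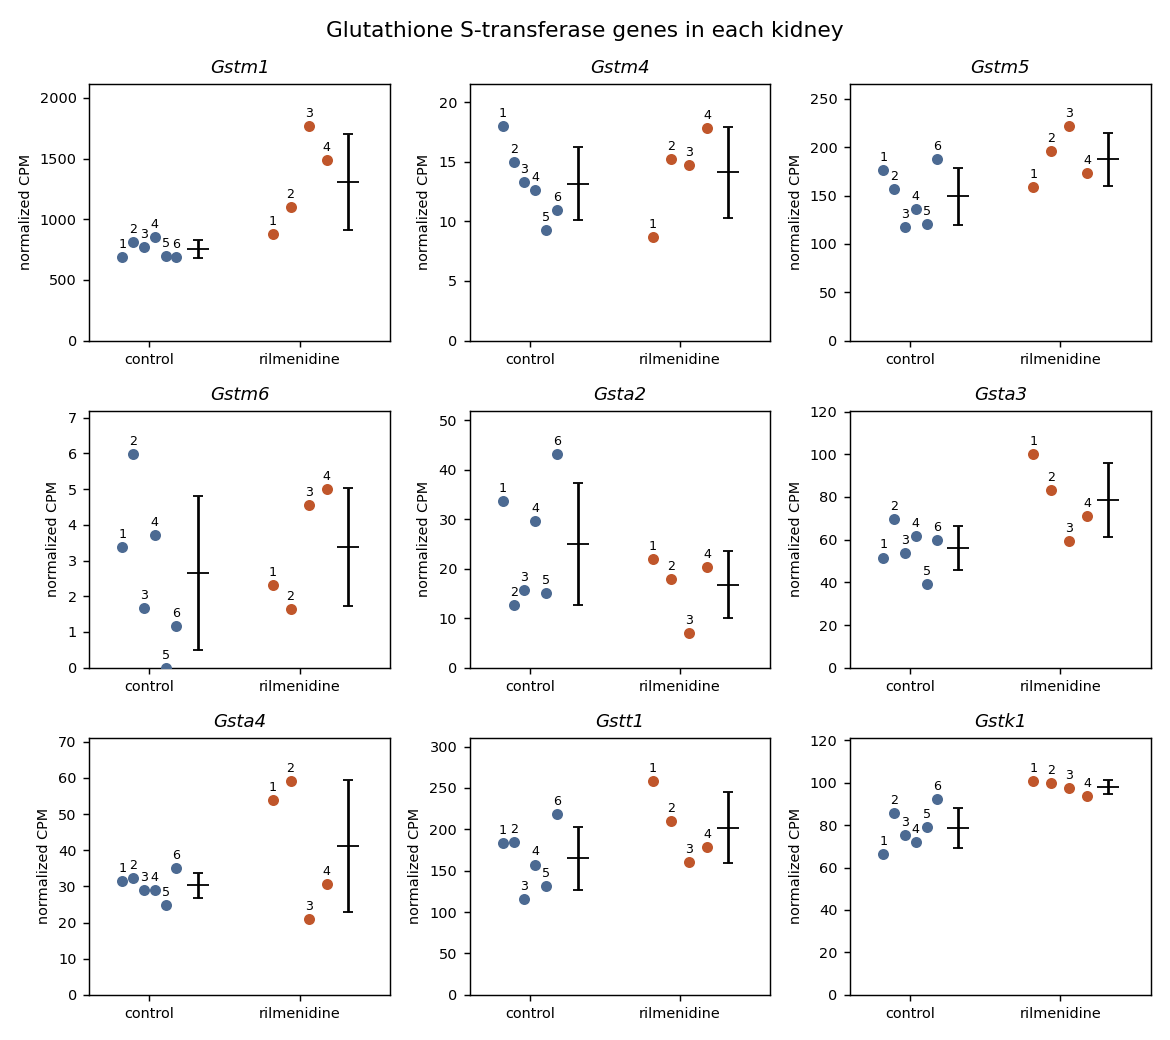
Normalized CPM of 9 members in each kidney, with a separate linear axis from 0 for each gene. Points are single kidneys with their replicate number, the bar beside each group is the mean ± 1 SD (6 control, 4 rilmenidine), and all 4 rilmenidine kidneys lie above every control for Gstm1 and Gstk1.

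Gstm1, the mu-class enzyme that led the family in kidney, was higher in the rilmenidine group. The controls lay between 685 and 857 normalized CPM with a median of 734. Rilmenidine kidneys 1 to 4 stood at 880, 1101, 1765 and 1487 normalized CPM. The groups did not overlap, and the treated kidneys ranged from just above the highest control to well beyond it. The means were 752 ± 72.7 (SD, n = 6) and 1308 ± 395 normalized CPM (SD, n = 4), a 1.74-fold difference, on 610 to 5045 reads per library. The fitted log2 fold change was 0.80 (SE 0.17), with an unadjusted p of 0.000207 that was number 11 in the table and an adjusted p of 0.189. The difference was thus larger than the spread of the controls and did not pass the threshold over all genes. The coefficient of variation of Gstm1 was 9.66% in controls and 30.2% in treated kidneys, beside medians of 23.5% and 19.8% over all genes tested.

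The size of the Gstm1 difference rested on rilmenidine 3 and rilmenidine 4. Without both, a choice made after the data were seen, the log2 fold change was 0.40 (SE 0.16, adjusted p 0.579). Within the 7 libraries with at least 10 CPM of receptor gene reads, which leave out the same pair and control 6, it was 0.37 (SE 0.17, unadjusted p 0.0448, adjusted p 0.463). The other 3 libraries hold a single control, at 688 normalized CPM of Gstm1 against 1765 and 1487, which is too few for a test. When log2 library size was added as a covariate, Gstm1 had a log2 fold change of 0.58 (SE 0.22, adjusted p 0.975). With Malat1 as a covariate it was 0.79 (SE 0.23), and without the 4 controls with Malat1 over 1000 CPM it was 0.80 (SE 0.27). Gstm1 was higher under rilmenidine in all 21 alternatives tried, with log2 fold changes of 0.37 to 0.95. Its adjusted p was 0.0312 without rilmenidine 1 and 0.553 without rilmenidine 3. It was 0.00406 in DESeq2, 0.0226 in edgeR's likelihood ratio test and 0.000129 when genes with a single count in any library were kept. The call thus depended on the kidneys taken, the test and the filter.

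Markers of tubule segments also differed between kidneys, in both directions. The summed proximal tubule markers were 41565 to 55317 normalized CPM in controls and 51405, 45361, 68219 and 59385 in rilmenidine kidneys 1 to 4, so that kidneys 3 and 4 lay above all controls. Most of that sum was Kap, an androgen-dependent proximal tubule transcript, and 5 of the 10 markers had a log2 fold change above 0. Kap was at 59589.5 and 49145 in kidneys 3 and 4, against 31432 to 46303 in controls. Slc34a1, the next highest marker, was at 5082 and 6316 there, against 5241 to 7010 in controls. Slc22a7 also lay above all controls there, at 118 and 136 against 32.4 to 90.5. Slc7a13, at 902 and 917, lay within the control range of 412 to 943. The markers thus did not move as a set, and the sum in these kidneys was mostly Kap. Summed principal cell markers were 187 to 293 in controls and 281 to 423 normalized CPM in treated kidneys, with 5 of 5 above 0. Treated kidneys 2, 3 and 4 lay above all controls in this sum. Aqp4 alone made up 189 of 423 in kidney 3 and 97.7 of 380 in kidney 4. Its log2 fold change was 2.12, against 0.06 to 0.58 for the other principal cell markers. Summed thick ascending limb markers were 1294 to 1917 and 1560 to 2515, with kidneys 3 and 4 above all controls. Umod alone made up 1906 of 2358 in kidney 3 and 1986 of 2515 in kidney 4. Its log2 fold change was 0.61, against 0.08 and 0.07 for the other markers of this segment that were tested. Cldn16, which had too few reads to be tested, was at 2.96 ± 1.78 normalized CPM in controls and 8.18 ± 2.83 in treated kidneys. Distal convoluted tubule markers were at 193 to 344 in controls and 230, 247, 178 and 123 normalized CPM in rilmenidine kidneys 1 to 4, with kidneys 3 and 4 below all controls and 0 of 3 markers above 0. Intercalated cell markers were 211 to 312 in controls and 353, 238, 168 and 217 in treated kidneys, with kidney 1 above and kidney 3 below all controls. No marker of these lists was at 0 in every library. The part of these markers, of library depth and of the receptor gene reads in the Gstm1 difference was not tested. In whole kidney, fewer cells of a type and less RNA per cell cannot be told apart.

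**Figure D2:**
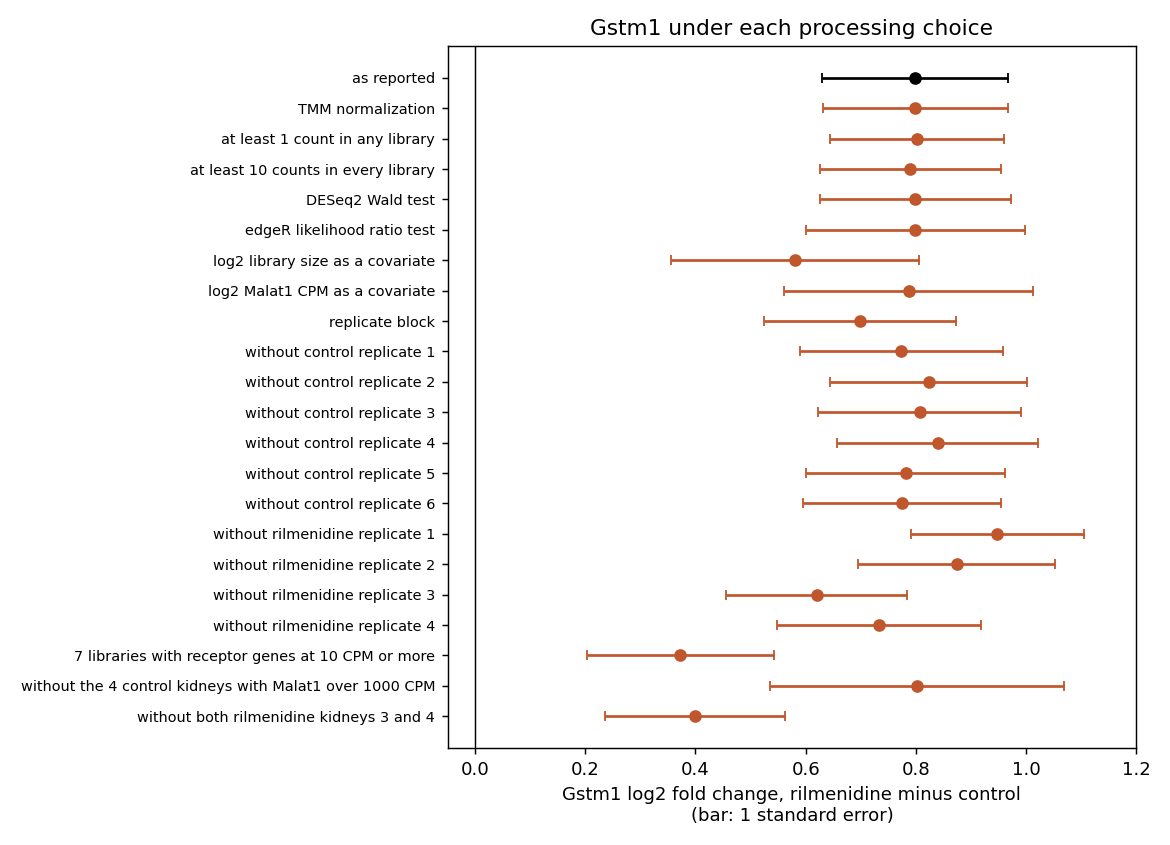
Log2 fold change of Gstm1 (rilmenidine minus control) as reported, in black, and under 21 alternatives, in orange, with bars of 1 standard error. All values lie above 0, and the smallest, 0.37 and 0.40, are those without rilmenidine kidneys 3 and 4.

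The other mu-class members were much lower than Gstm1 and differed less. Gstm5 had 118 to 188 normalized CPM in controls with a median of 146. Rilmenidine kidneys 1 to 4 had 159, 196, 221 and 173 normalized CPM of Gstm5. The groups overlapped, with kidneys 2 and 3 above all controls. The Gstm5 log2 fold change was 0.33 (SE 0.15, unadjusted p 0.0455, adjusted p 0.463), and 13.9% of its exonic bases lie under the antisense gene 4933431E20Rik, whose reads cannot be told apart without a known strand setting. Gstm4 had 9.25 to 17.96 normalized CPM in controls with a median of 13.0, and 8.70, 15.2, 14.7 and 17.8 in the treated kidneys, which lay within or below that range. Its log2 fold change of 0.15 (SE 0.25, adjusted p 0.885) turned to -0.16 within the 7 libraries with receptor gene reads and to -0.10 without rilmenidine kidneys 3 and 4. Gstm6 had 0 to 16 reads per library, reached 6 reads in 3 libraries only and was not tested. Its levels were 0 to 5.99 normalized CPM in controls and 1.63 to 5.00 in treated kidneys.

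Gstm1 made up most of the reads of the 7 mu-class genes in the table. Its share was 71.7% to 79.9% in the controls and 75.2%, 78.0%, 84.3% and 84.0% in rilmenidine kidneys 1 to 4. The 95% Wilson intervals of kidneys 3 and 4, 83.4% to 85.2% and 83.0% to 84.9%, lay above the interval of control 4, the highest control, at 77.8% to 81.9%. These intervals cover counting error only. Without Gstm1, the mu class summed to 237 ± 36.9 normalized CPM (SD, n = 6) in controls and 303 ± 20.5 (SD, n = 4) in treated kidneys, and the lowest treated kidney at 283 lay above the highest control at 276. The mu-class genes that are no members added to this sum. Gstm2 was at 58.7 to 94.7 normalized CPM in controls and at 114, 95.03, 81.5 and 84.3 in the treated kidneys, with a log2 fold change of 0.45 (SE 0.16, unadjusted p 0.0103, adjusted p 0.321). Gstm7 was at 3.94 ± 0.962 and 3.83 ± 2.43 normalized CPM, and Gstm3 was not tested.

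The alpha-class members differed in both directions, and the highest treated kidneys were kidneys 1 and 2 for Gsta3 and Gsta4 and kidneys 3 and 4 for Gstm1. Gsta3, which in rodents is known for conjugating activated aflatoxin, had 39.3 to 69.5 normalized CPM in controls with a median of 57.0. Rilmenidine kidneys 1 to 4 had 100.3, 83.1, 59.5 and 71.2 normalized CPM of Gsta3, so that 3 of 4 lay above all controls and kidney 3 did not. The Gsta3 log2 fold change was 0.47 (SE 0.17, unadjusted p 0.0143, adjusted p 0.338). Gsta4, which conjugates the lipid peroxidation product 4-hydroxynonenal, had 24.9 to 35.1 normalized CPM in controls with a median of 30.2. In the treated group it had 53.9 and 59.2 in kidneys 1 and 2, above all controls, and 21.0 and 30.6 in kidneys 3 and 4, below or within the control range. The Gsta4 log2 fold change was 0.41 (SE 0.24, adjusted p 0.583) over all kidneys, 0.95 (SE 0.20, adjusted p 0.252) within the 7 libraries with receptor gene reads, and 0.90 (SE 0.19, adjusted p 0.576) without kidneys 3 and 4. Its coefficient of variation was 11.6% in controls and 44.5% in treated kidneys.

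Gsta2 was the member with a log2 fold change below 0. It had 12.6 to 43.3 normalized CPM in controls with a median of 22.7, and 22.0, 17.9, 6.996 and 20.3 in the treated kidneys. All treated kidneys but kidney 3 lay within the control range, and kidney 3 lay below it. The Gsta2 log2 fold change was -0.60 (SE 0.36, adjusted p 0.586) and stood at -0.05 (SE 0.37) within the 7 libraries with receptor gene reads. Of the 401 windows of 100 bases in the last 500 bases of the Gsta2 transcript, 27 (6.73%) recur in Gm10639, and reads from there could be split between the genes or dropped. Summed over the 4 alpha-class genes in the table, the level was 111 ± 20.2 normalized CPM in controls and 137 ± 39.9 in treated kidneys.

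Gstp1, the pi-class enzyme, had 0 reads in all 10 libraries, as did Gstp2 and Gstp3. A count of 0 allows up to 0.928 CPM in the deepest library and 3.47 in the shallowest. Of the 401 windows of 100 bases in the last 500 bases of Gstp1, 270 (67.3%) recur in Gstp2 or the pseudogene Gstp-ps, to which 1 to 9 reads per library were assigned. How reads that match several places were counted is not given in the sources used here, so the absence of reads does not show that the gene is silent. The same check found no shared window for the members other than Gstp1 and Gsta2.

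Gstt1, the theta-class enzyme known for acting on small halogenated molecules, had 115 to 218 normalized CPM in controls with a median of 170. Rilmenidine kidneys 1 to 4 had 259, 210, 161 and 179 normalized CPM of Gstt1, so that kidney 1 alone lay above all controls. The Gstt1 log2 fold change was 0.28 (SE 0.18, adjusted p 0.595). It was 0.60 (SE 0.20) within the 7 libraries with receptor gene reads and -0.0047 (SE 0.20) without the 4 controls with high Malat1. Its neighbour Gstt2, which is no member, had 81.6 to 132 normalized CPM in controls with a median of 93.7, and 213, 159, 151 and 125 in the treated kidneys. In Gstt2, 3 of 4 treated kidneys lay above all controls. Its log2 fold change was 0.71 (SE 0.16, adjusted p 0.193), number 19 in the table by unadjusted p, 0.000365. Gstt3 had a log2 fold change of 0.24 (SE 0.16, adjusted p 0.635). The 4 theta-class genes summed to 336 ± 59.3 normalized CPM in controls and to 579, 459, 377 and 382 in treated kidneys.

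Gstk1, a GST of mitochondria and peroxisomes, was the member with the most even treated group. Its levels were 66.2 to 92.4 normalized CPM in controls with a median of 77.4, and 100.9, 99.9, 97.6 and 93.7 in rilmenidine kidneys 1 to 4. All 4 treated kidneys lay above all controls, the lowest by a small margin. The means were 78.5 ± 9.45 (SD, n = 6) and 98.0 ± 3.21 normalized CPM (SD, n = 4), with a log2 fold change of 0.31 (SE 0.12, unadjusted p 0.0243, adjusted p 0.389). Gstk1 had a log2 fold change of 0.35 (SE 0.17) without rilmenidine kidneys 3 and 4 and 0.16 (SE 0.14) with Malat1 as a covariate.

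Counted over the list, 8 of the 10 members had enough reads to be tested. Of the 8, 4 (Gstm1, Gstm5, Gsta3 and Gstk1) had an unadjusted p under 0.05, all higher under rilmenidine and none lower, where 10.6% of all genes tested had such a p, 4.43% higher and 6.13% lower. In 2 of the 8, Gstm1 and Gstk1, the groups did not overlap and the treated group was higher, beside 0.796% of all genes tested. Log2 fold changes were above 0 in 7 of 8 members and in 50.3% of all genes, with a median of 0.32 among members (range -0.60 to 0.80) and of 0.0021 over all genes. Nothing is read from these counts, since the members were chosen with this comparison known. With Malat1 as a covariate, 1 member (Gstm1) had an unadjusted p under 0.05, beside 311 of 10055 genes tested. Without the 4 controls with high Malat1 it was again Gstm1 alone, beside 347 of 10773 genes tested. No member passed an adjusted p of 0.05 in these comparisons. The table held 17 other GST genes, of which 9 were tested and 3 (Gstm2, Gstt2 and Mgst3) had an unadjusted p under 0.05, all higher, with a median log2 fold change of 0.32. Mgst3, a membrane-bound GST, was at 39.1 ± 14.0 and 57.7 ± 10.2 normalized CPM, with a log2 fold change of 0.54 (SE 0.24, adjusted p 0.441). Gstz1, an isomerase of tyrosine breakdown, was at 398 ± 34.8 and 434 ± 58.8 normalized CPM, and its log2 fold change was 0.12 (SE 0.12). The log2 fold change was 0.35 (SE 0.22) for Mgst1, 0.32 (SE 0.25) for Gsto1 and -0.09 (SE 0.37) for Gstcd. Gsta1, Gstt4, Gsto2, Hpgds and Mgst2 had too few reads to be tested.

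**Figure D3:**
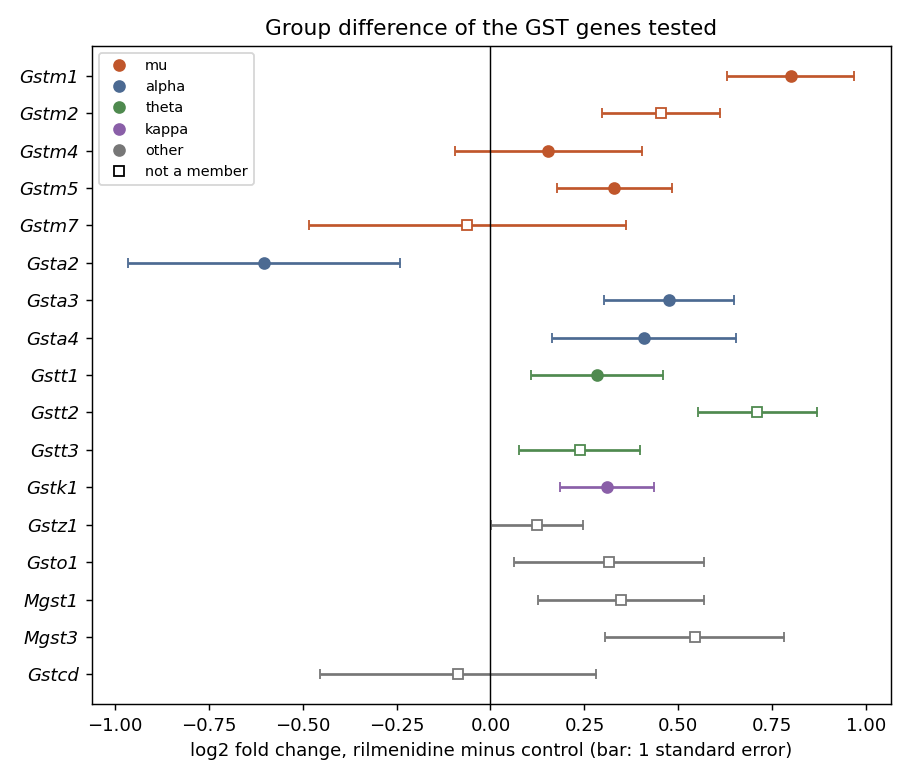
Log2 fold change (rilmenidine minus control) of the 17 GST genes tested, with bars of 1 standard error, coloured by class. Filled circles are members, open squares are GST genes that are no members, Gstm1 is the highest at 0.80 and Gsta2 the lowest at -0.60, and 14 of the 17 lie above 0.

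Within the groups the members varied with Gstm1 to different degrees and in both directions. After the group means were subtracted, Pearson's r with Gstm1 over the 10 kidneys was 0.54 for Gstm4, 0.21 for Gstm5, -0.17 for Gstk1, -0.45 for Gsta3, -0.53 for Gsta2, -0.58 for Gstt1 and -0.83 for Gsta4. For Gsta4, Spearman's rho was -0.84, and r was -0.61 without the 2 kidneys farthest from the median of Gstm1 (rilmenidine 3 and 1) and -0.08 among the 6 controls. The value for Gsta4 thus rested largely on the treated kidneys, in which kidneys 3 and 4 were high in Gstm1 and kidneys 1 and 2 in Gsta4. Other signs turned with the kidneys taken: the r of Gsta3 with Gstm1 was 0.23 without rilmenidine 3 and 1 and 0.59 among the controls, and that of Gstm5 was -0.40 and -0.37. Gstm4 had 0.25 and 0.15, Gsta2 -0.18 and -0.35, Gstt1 -0.29 and -0.21, and Gstk1 -0.17 and -0.08. Among themselves, Gsta3 and Gsta4 had an r of 0.74, Gsta3 and Gstt1 of 0.70, and Gsta4 and Gstt1 of 0.67. The treated kidneys 1 and 2 also had more receptor gene reads, 98.7 and 436 CPM, than kidneys 3 and 4, 4.27 and 7.43 CPM, and fewer counts in all. All correlations are over the same 10 libraries, share their depth and composition, and are given as descriptions.

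**Figure D4:**
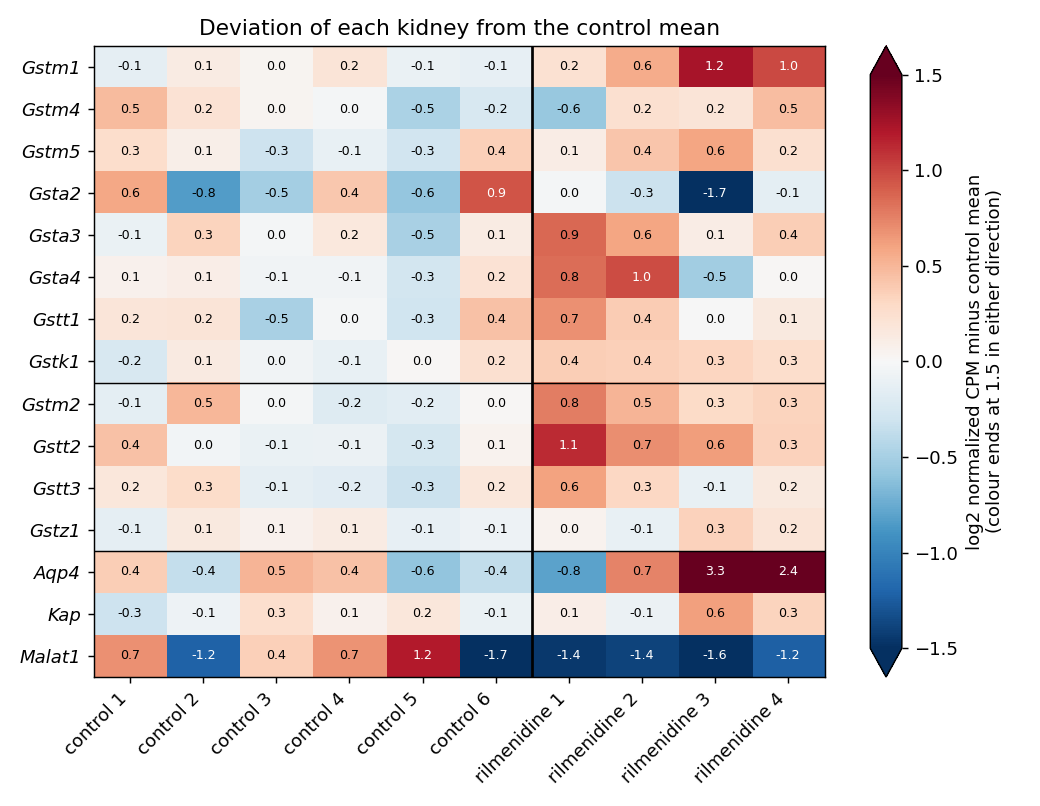
Deviation of each kidney from the control mean in log2 normalized CPM, for the 8 members tested (top), 4 other GST genes (middle) and Aqp4, Kap and Malat1 (bottom). Red is above and blue below the control mean, and Gstm1 is high in rilmenidine kidneys 3 and 4, where Aqp4 is high too. Gsta4 is above all controls in rilmenidine kidneys 1 and 2, and Gstt1 in rilmenidine kidney 1 alone.

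The 5 genes whose centred levels were most like those of Gstm1 over the 10 kidneys were Napsa (r = 0.95, rho = 0.92), 4930430F08Rik (0.94 and 0.88), Rnf11 (0.92 and 0.85), Zbtb7b (0.92 and 0.89) and Aqp4 (0.92 and 0.87). Napsa encodes the aspartic protease napsin A, and Aqp4 a water channel of tubule cells. Without rilmenidine kidneys 3 and 1 the r values of these genes were 0.83, 0.76, 0.85, 0.91 and 0.68. Among the 6 controls they were 0.63, 0.88, 0.68, 0.91 and 0.35. With no centring, 2 of the 5, Napsa and Aqp4, were again among the 5 most like Gstm1. Of the GST genes tested, Gstz1 was the one most like Gstm1, with an r of 0.79, and of 0.92 without those kidneys.

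The genes that make and recycle glutathione, the cosubstrate of GSTs, were counted next, in a list that also held glutaredoxins. Of 15 listed genes 12 were tested, and 2 had an unadjusted p under 0.05, both higher, beside 4.43% of all genes tested that were higher. A log2 fold change above 0 was found in 10, beside 50.3% of all genes, with a median log2 fold change of 0.18. Gss, which adds the last amino acid of glutathione, was at 95.2 ± 21.8 normalized CPM in controls and 124 ± 35.5 in treated kidneys, with a log2 fold change of 0.40 (SE 0.19, adjusted p 0.471). Glrx5, a mitochondrial glutaredoxin of iron-sulfur cluster assembly, was at 276 ± 49.7 and 360 ± 40.8, with a log2 fold change of 0.38 (SE 0.14, adjusted p 0.340). The subunits of the enzyme that sets the pace of glutathione synthesis had log2 fold changes of -0.02 (Gclc, SE 0.24) and 0.24 (Gclm, SE 0.17).

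In the mercapturic acid pathway and among exporters of conjugates, 15 of 20 listed genes were tested. Of the 15, 2 had an unadjusted p under 0.05, in opposite directions, beside 10.6% of all genes tested. A log2 fold change above 0 was found in 10, beside 50.3% of all genes, with a median of 0.12. Abcc4, an efflux pump of the tubule, was at 19.8 ± 4.33 normalized CPM in controls and 31.1 ± 9.55 in treated kidneys, a log2 fold change of 0.62 (SE 0.22, adjusted p 0.337). Kyat1, a lyase that cleaves cysteine conjugates, was at 220.0 ± 40.6 and 170.0 ± 38.2, a log2 fold change of -0.37 (SE 0.17, adjusted p 0.464). Ggt1, the brush border enzyme that starts the trimming of conjugates, was at 1037 ± 127 and 1062 ± 245 normalized CPM, a log2 fold change of 0.03 (SE 0.16).

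Among the regulators of GST genes, 11 of 16 were tested. Of the 11, 2 had a log2 fold change above 0 and 9 below, beside 50.3% of all genes above 0. The median was -0.06. Mafg, the small MAF partner of NRF2, had an unadjusted p under 0.05 and was lower, at 90.0 ± 11.3 normalized CPM in controls and 70.2 ± 12.8 in treated kidneys, a log2 fold change of -0.35 (SE 0.15, adjusted p 0.408). Nfe2l2, which encodes NRF2, was at 92.6 ± 10.5 and 92.1 ± 14.5, a log2 fold change of -0.01 (SE 0.14). Keap1, which targets NRF2 for degradation, had a log2 fold change of -0.17 (SE 0.19). The share of genes with an unadjusted p under 0.05 in these 3 lists, 5 of 38, stands beside 10.6% of all genes tested. In none of the 3 lists did a gene pass an adjusted p of 0.05.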

How the data were processed

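RNA-seq of 10 kidneys was analysed, 6 control and 4 rilmenidine, grouped and numbered by their labels. The control group is smaller than the one the study's methods describe, and the further controls were not analysed here. The authors deposited a table of raw counts of reads per Ensembl gene. Per the labels, reads were demultiplexed with bcl2fastq 1.8.4, trimmed with Trimmomatic 0.32, mapped with STAR 2.5.2b to mm10 and counted with featureCounts 1.5, and libraries were made by a protocol with 3′ capture and molecular identifiers. The annotation release, the strand setting and whether duplicate molecules were collapsed are not given in the sources used here. Uncollapsed duplicates would make the counts exceed the molecules captured. Nothing states that the kidneys of a group are more than separate samples of that group, so p-values measure the spread between these samples.

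The 10055 of 43629 genes that reached 6 reads in 66.6% of the libraries or more were normalized by RLE and tested with edgeR 4.0.16 (R 4.3.3) by the quasi-likelihood test with the group as the only term and all 10 libraries, with Benjamini-Hochberg adjustment over all genes tested. SE is the log2 fold change divided by the square root of the F statistic. Normalized CPM uses RLE library sizes, logarithms a prior count of 2. Symbols, exons and lengths are from GENCODE M21, in which 42462 identifiers were found. Scripts were tested on simulated data. No pair of libraries was closer than a chi-square of 2.71 per degree of freedom, so none was counted as a duplicate.

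The members and all lists were chosen with earlier results of these data known. The text names all members, the GST genes that are no members, the genes of each pathway list with an unadjusted p under 0.05 and the 5 genes most correlated with centred Gstm1, besides markers and Malat1 where their value stands beside a result. Gclc, Gclm, Ggt1, Nfe2l2, Keap1 and, among markers, Kap, Slc34a1, Slc22a7, Slc7a13, Umod, Cldn16 and Aqp4 were added after their values were seen. Alternatives were TMM, 2 other filters, DESeq2 1.42.0, the likelihood ratio test, covariates for library size and Malat1, the replicate number as a block, and leaving out kidneys or groups of libraries.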

Additional observations from a re-analysis of the deposited data

Results flagged for a closer look

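In 40 groups of kidneys examined for a sample far from the others, chance gives about 1 in 20, and 2 stood out. Gstm2 was at 94.7 normalized CPM in control 2, against 58.7 to 67.5 in the other 5 controls, a gap of 0.756 of the group's range. Mgst2, a membrane-bound GST with too few reads to be tested, was at 3.80 normalized CPM in rilmenidine 2, against 0 to 0.580 in the other rilmenidine kidneys, a gap of 0.847 of the range.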

How the results depend on the processing

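Few reads limit what can be said of Gstm6 and Gstm3. The pi-class genes had no reads, and the part of depth and of letters shared with other genes in this was not tested. With 4 treated kidneys of which a pair stands apart, group differences of the members depend on which libraries enter. Over the 21 alternatives Gsta2, Gsta3, Gsta4, Gstk1, Gstm1 and Gstm5 kept their direction. Gstm4, at 0.15, turned to -0.042 with the replicate block, -0.16 within the 7 libraries with receptor gene reads and -0.10 without rilmenidine kidneys 3 and 4. Gstt1, at 0.28, turned to -0.0047 without the 4 controls with high Malat1. The cause was not tested.

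At an adjusted p under 0.05, the 0 genes called in the whole table became 241 of 27565 when a single count in any library sufficed for a gene to enter, 60 with DESeq2 and 44 with the likelihood ratio test. Gstm1 was then among the calls, at 0.80 in each (adjusted p 0.000129, 0.00406 and 0.0226), and its adjusted p over all alternatives ran from 0.000129 to 0.9997. Leaving out each kidney gave 0 to 37 calls, with 33 without control 2, 37 without control 6 and 6 without rilmenidine 1, and log2 fold changes of Gstm1 of 0.62 to 0.95.

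Counts at an unadjusted p under 0.05 moved as follows. All genes (1061 of 10055) were 311 with Malat1 as a covariate and 347 of 10773 without the 4 controls with high Malat1. They were 432 with library size as a covariate, 985 with DESeq2 and 992 with the likelihood ratio test. They were 2035 of 27565 with the loosest filter, 1034 of 9796 within the 7 libraries and 806 of 9717 without rilmenidine kidneys 3 and 4. Leaving out each kidney gave 743 (without control 5) to 1457 (without control 6). Members (4) fell to 1 with Malat1 as a covariate and 1 without the 4 controls with high Malat1, and were 2 to 5 leaving out each kidney, with 2 without rilmenidine 1. Other GST genes (3) were 5 with the loosest filter, 1 with Malat1 as a covariate, 1 without the high-Malat1 controls and 1 to 3 leaving out each kidney. Genes of the glutathione list (2) were 4 with the loosest filter and 1 with DESeq2, the likelihood ratio test or the 7 libraries. They were also 1 without rilmenidine kidneys 3 and 4. They were 0 with either covariate or without the high-Malat1 controls, and 1 to 4 leaving out each kidney. Mercapturic acid pathway genes (2) were 1 with the likelihood ratio test, 0 with Malat1 as a covariate or without the high-Malat1 controls, and 0 to 2 leaving out each kidney. Regulators (1) were 0 with Malat1 as a covariate and 0 to 1 leaving out each kidney.

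The labels do not say that a replicate number marks a shared litter or day. Kidneys of the same number deviated with correlations of 0.08, 0.08, -0.08 and -0.01. The chi-square per degree of freedom was 3.78 between control 1 and rilmenidine 1 and 3.66 between control 2 and rilmenidine 2, the closest pairs across the groups. It was 15.5 for the pair numbered 3 and 7.53 for the pair numbered 4. Whether kidneys of a number share more than the number was not tested. With the replicate number as a block there were 3 calls in the whole table, and Gstm1 stood at 0.70 (adjusted p 0.187). In that fit 3 members, 0 genes of the glutathione list and 1 mercapturic acid pathway gene had an unadjusted p under 0.05. Of all 10055 genes tested, 917 had such a p in that fit.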
